A study of Mus musculus with 12 samples.

Results

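The 3 hypothalamus input libraries were compared with the 3 midbrain input libraries, 6 of the 12 libraries of the series, taken by the region and the fraction in their titles. An input library holds total RNA of the whole dissected region, so neurons, glia, vessels and lining cells all contribute to it. All animals were adult mice of the JX883 line, which carries a Slc17a6-EGFP/Rpl10a transgene, a tagged ribosomal protein driven from Slc17a6, which encodes the glutamate transporter VGLUT2. Both input groups carry this transgene and no treatment is named, and strain background, sex, age in weeks and whether a library is 1 animal or a pool are not given in the sources used here. The other 6 libraries are ribosome-bound RNA immunopurified (IP) from the same regions and are used only beside the inputs.

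The hypothalamus lies below the thalamus around the third ventricle and holds many small groups of neurons, each defined by a peptide that it releases into the brain or the pituitary stalk. Its cell groups are set up by forebrain transcription factors, and its ventricle is lined by ciliated ependymal cells and by tanycytes. The midbrain holds the superior and inferior colliculi, the periaqueductal gray, the dopamine neurons of the ventral tegmentum and substantia nigra, and part of the serotonin neurons of the raphe, and it is crossed by large myelinated tracts. In RNA of whole tissue, fewer cells of a type and less RNA per cell cannot be told apart.

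Counts over genes came to between 41909019 and 52916844 per input library, and rank correlations between libraries of 1 region (0.972 to 0.983) overlapped with those between regions (0.956 to 0.974). Several libraries stood apart. Hypothalamus input 2 held 1038 CPM (counts scaled to library size) of the pituitary hormone transcript Prl, against 22.5 and 5.88 in the other hypothalamus libraries, and 592 CPM of Gh against 9.69 and 3.05. Midbrain input 3 held 926 CPM of the choroid plexus transcript Ttr, against 7.51 and 0.822. Hypothalamus input 3 had the highest level of the thalamic regulator Tcf7l2 in its group, 445 CPM against 106 and 218. Both libraries numbered 1 held at most 0.02 CPM of the Y-linked transcripts Ddx3y, Kdm5d, Eif2s3y and Uty, while those numbered 2 and 3 held 3.55 to 34.9 CPM of each. Xist was present in all 6, at 31.2 and 33.8 CPM in the libraries numbered 1 and at 14.7 to 19.5 CPM in the others. This difference falls between replicate numbers and not between regions. By the lane codes of the deposited files, regions of 1 number were sequenced on different lanes, so region and lane cannot be told apart within a number.

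Across the 17561 genes tested, 1037 were higher in the hypothalamus input and 1297 were lower, which is 5.91% and 7.39% of the genes tested and 13.3% in either direction (edgeR's quasi-likelihood test with the replicate number as a block, Benjamini-Hochberg adjusted p under 0.05). Of these, 378 were more than 2-fold higher and 350 more than 2-fold lower. In 1752 of the 2334 called genes all 3 libraries of one region lay above all 3 of the other. The share of genes without overlap among all genes tested is not given here. The median log2 fold change (hypothalamus minus midbrain) of all genes tested was 0.01. Scaling by library size alone moved that median by 0.12 and turned the share of calls that are higher from 44.4% to 65.9%. Without the replicate block, 220 genes were higher and 204 lower.

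**Figure D1:**
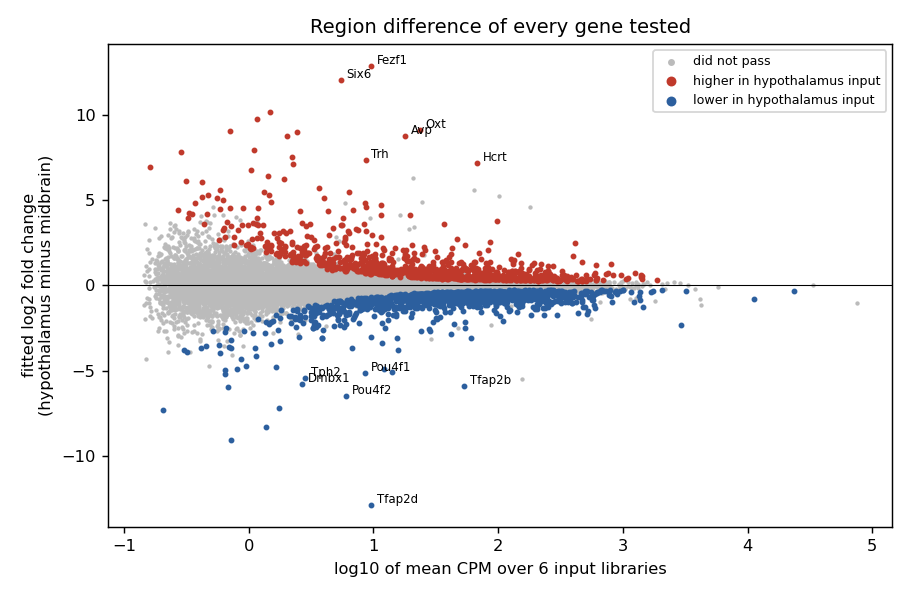
Each point is 1 of the 17561 genes tested, with the log10 of its mean CPM over the 6 input libraries on the x axis and its fitted log2 fold change on the y axis. Red points (1037) passed as higher and blue points (1297) as lower in hypothalamus input. Labels mark 6 genes of each direction. These had the largest change among genes that passed, reached 5 CPM on average in the higher region and did not overlap. Fezf1, Six6 and Tfap2d have a group with no counts, so their fitted heights are no measured folds.

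Promoters of 4 of the most region-restricted genes are shown first, since they come from 2 groups of gene that were among the most changed, neuropeptide precursors on the hypothalamic side and transcription factors of midbrain neurons on the other. Oxt and Avp encode the precursors of oxytocin and vasopressin and lie next to each other on chromosome 2 on opposite strands. Tal1 and Gata3 encode partners in the programme of midbrain GABAergic neurons. The sequences are from RefSeq (build GRCm38.p6), run 5′ to 3′ from 250 bases before to 50 bases after the listed start, and lie at chr2:130575919-130576218 (plus strand, Oxt), chr2:130582539-130582838 (minus strand, Avp), chr4:115056176-115056475 (plus strand, Tal1, the first of 2 starts listed) and chr2:9878551-9878850 (minus strand, Gata3). Capitals mark matches on either strand to any of 4 motifs, which were chosen with these promoters already searched. The first, TGACCT, is the core of sites bound by nuclear receptors such as those of oestrogen and thyroid hormone. The second, CACGTG, is an E-box, the kind of site bound by basic helix-loop-helix proteins. The third, CAGCTG, is an E-box of the form bound by helix-loop-helix proteins such as the product of Tal1. The last, AGATAA, is of the kind bound by zinc finger proteins such as the product of Gata3.
Oxt: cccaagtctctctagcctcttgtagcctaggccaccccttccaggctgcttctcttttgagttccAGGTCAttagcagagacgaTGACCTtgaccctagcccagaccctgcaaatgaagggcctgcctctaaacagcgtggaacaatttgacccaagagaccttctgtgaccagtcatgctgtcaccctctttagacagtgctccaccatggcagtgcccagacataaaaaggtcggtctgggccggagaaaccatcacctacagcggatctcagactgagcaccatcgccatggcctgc
Avp: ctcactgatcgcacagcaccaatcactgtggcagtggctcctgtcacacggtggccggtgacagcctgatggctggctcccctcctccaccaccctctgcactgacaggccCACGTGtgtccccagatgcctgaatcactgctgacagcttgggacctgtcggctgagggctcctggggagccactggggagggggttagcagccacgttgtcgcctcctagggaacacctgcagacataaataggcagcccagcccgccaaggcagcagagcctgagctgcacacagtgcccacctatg
Tal1: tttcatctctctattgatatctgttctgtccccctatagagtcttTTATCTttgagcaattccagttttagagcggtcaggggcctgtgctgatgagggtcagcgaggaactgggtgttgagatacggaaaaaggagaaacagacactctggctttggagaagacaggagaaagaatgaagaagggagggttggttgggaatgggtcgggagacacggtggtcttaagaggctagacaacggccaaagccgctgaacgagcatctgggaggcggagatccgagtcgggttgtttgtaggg
Gata3: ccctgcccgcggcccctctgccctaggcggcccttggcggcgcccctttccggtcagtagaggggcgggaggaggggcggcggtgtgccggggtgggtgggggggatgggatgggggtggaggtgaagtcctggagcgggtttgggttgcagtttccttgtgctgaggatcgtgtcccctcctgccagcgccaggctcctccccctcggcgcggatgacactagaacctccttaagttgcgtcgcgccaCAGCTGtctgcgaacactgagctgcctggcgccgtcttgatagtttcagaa

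Among the 11936 tested genes with a promoter in the table, 12.2% held TGACCT, 9.67% CACGTG, 6.56% AGATAA and 15.8% CAGCTG. The 12 most changed genes of each direction are a selection, here and below. They passed, reached 5 CPM on average in the higher region, did not overlap and had the largest change among such genes. Rarer genes with larger changes, such as Npvf and Ucn, are left out. All of the selected genes had a listed promoter, and TGACCT was in 2 of the higher (Oxt and Trh) and 0 of the lower genes. CAGCTG was in 0 of the higher and 4 of the lower genes (Tph2, Pou4f1, Gata3 and Kcng4). CACGTG was in Avp and Dlx2, and AGATAA in Fezf1, Lhx8, Tph2 and Tal1. A match describes these letters only, and these counts were not tested.

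Neuropeptide precursors were among the genes most restricted to the hypothalamus. Of 28 precursors of hypothalamic peptides listed, 23 were tested, 15 were higher in the hypothalamus and 0 lower, with a median log2 fold change of 3.41. Over all genes, 5.91% were higher and 7.39% lower, with a median of 0.01. This list and those below were chosen with earlier results of these data known, and no list was tested as a set. Oxt stood at 70.2, 31.5 and 39.05 CPM in hypothalamus inputs 1, 2 and 3 and at 0.02003, 0 and 0.247 CPM in the midbrain inputs. Every hypothalamus library lay far above every midbrain library for this gene. Its log2 fold change was 9.13 (SE 0.513, adjusted p = 3.76e-05; 0.0663 without replicate 2). Avp stood at 68.6, 30.3 and 9.14 CPM against 0.02003, 0 and 0.222 CPM. The hypothalamus libraries were spread widely but did not overlap with the midbrain (log2 fold change 8.76, SE 1.04, adjusted p = 0.0163), and the call was lost without replicate 1 (adjusted p = 0.16) or replicate 2 (0.333).

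Hcrt, the orexin precursor of arousal-promoting neurons of the lateral hypothalamus, was the most abundant of the 12 most changed genes at 190.4, 106 and 109 CPM against 0.2804, 0.866 and 1.73 CPM. Its log2 fold change was 7.17 (SE 0.793, adjusted p = 0.0349; 0.295 without replicate 2). Trh, the precursor of the releasing hormone for thyrotropin, stood at 29.2, 10.03 and 12.5 CPM against 0.3204, 0 and 0.0247 CPM (log2 fold change 7.36, SE 0.472, adjusted p = 2.36e-05). Both genes were high in every hypothalamus library and near 0 in every midbrain library. Gal, for galanin, stood at 22.4, 16.1 and 11.2 CPM against 0.481, 0.411 and 0.864 CPM (log2 fold change 4.81, adjusted p = 5.52e-05). Npvf, for a peptide of the RFamide family, had 421 counts in the hypothalamus inputs and 0 in the midbrain inputs, at least 44.5-fold higher against a floor of 3 counts per library. Qrfp, another RFamide precursor, had 318 counts against 1, a ratio of 296 (95% counting interval 52.8 to 11700).

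The feeding peptides of the arcuate nucleus gave smaller or less certain differences. Npy, which drives feeding, stood at 9.67, 11.6 and 8.23 CPM against 3.92, 7.05 and 3.38 CPM (log2 fold change 1.09, adjusted p = 0.0117), and Agrp, made in the same neurons, at 3.67, 2.88 and 1.07 CPM against 0.3605, 0.3895 and 0.691 CPM (log2 fold change 2.31, adjusted p = 0.0414). Their groups did not overlap, though Npy lost its call without replicate 1 (0.0634) or 3 (0.0913) and Agrp without replicate 1 (0.268). Pomc, the melanocortin precursor, is also made in the pituitary. It stood at 19.2, 98.3 and 2.35 CPM against 0.841, 3.05 and 2.39 CPM and did not pass (adjusted p = 0.382). It did not pass without replicate 1 (0.767) or 2 (0.763) either, but passed without replicate 3 (3.76e-05), by DESeq2 (0.0311) and by limma-voom (0.00566). Its highest value was in hypothalamus input 2, the library high in Prl and Gh, and the part of pituitary RNA in that value was not tested. Pmch, for melanin-concentrating hormone, stood at 224, 85.4 and 68.4 CPM against 1.202, 1.36 and 5.21 CPM, with no overlap, and did not pass (adjusted p = 0.135). It did not pass without replicate 1 (0.2785) or 2 (0.444) either, but passed without replicate 3 (9.73e-05), by DESeq2 (3.65e-08) and by limma-voom (0.00245). Ghrh, for the releasing hormone of growth hormone, passed at a log2 fold change of 4.35 (adjusted p = 0.0114), but not without replicate 1 (0.196). Crh did not pass (1.39, adjusted p = 0.258), nor without replicate 1 (0.696) or 3 (0.633), but did without replicate 2 (0.027).

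Peptides made in many brain regions divided. Of 16 tested, 5 were higher and 2 lower, beside 5.91% and 7.39% of all genes, with a median of 0.12. Without replicate 1 these counts were 3 and 5, and without replicate 3 they were 2 and 2. Nts, for neurotensin, stood at 38.6, 13.1 and 15.2 CPM against 10.3, 4.35 and 3.503 CPM (log2 fold change 1.87, adjusted p = 0.000156), and Crhbp, a binding protein for corticotropin-releasing hormone, at 1.89 (adjusted p = 0.000769). Cck, for cholecystokinin, stood at 42.2, 33.8 and 65.7 CPM against 159, 134 and 192 CPM and was lower (log2 fold change -1.81, SE 0.108, adjusted p = 1.62e-05). Ucn, for urocortin, had 202 counts in the midbrain inputs and 0 in the hypothalamus inputs, at least 23.2-fold lower.

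**Figure D2:**
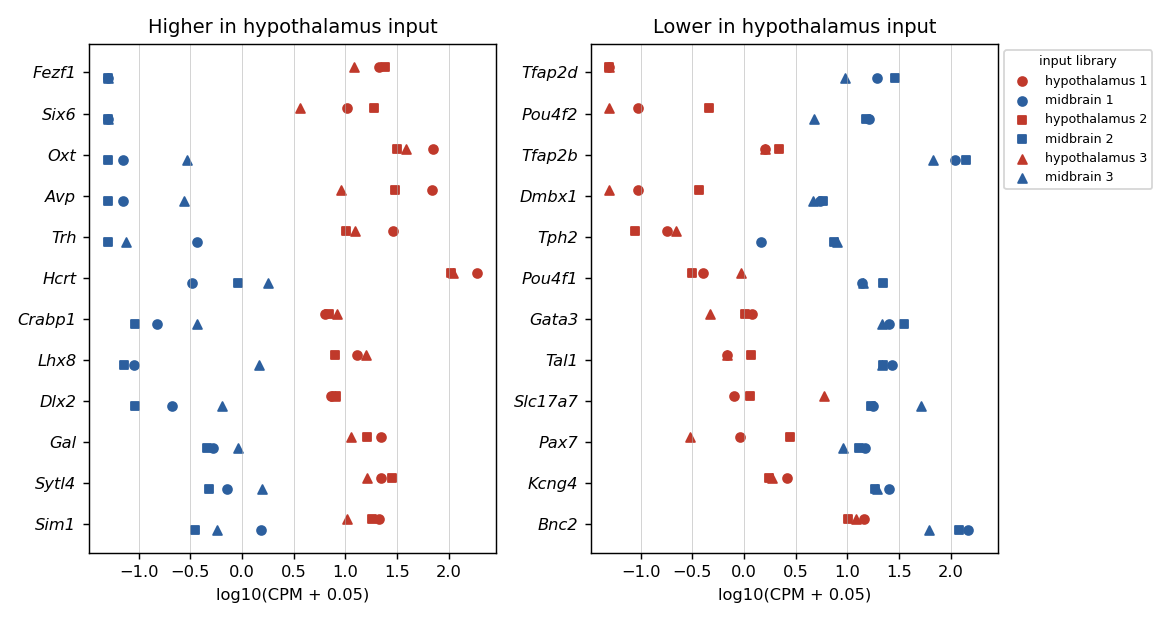
Each point is 1 input library, with log10(CPM + 0.05) on the x axis, for the 12 most changed genes of each direction, picked as in the text. Red marks hypothalamus, blue midbrain, and the shape gives the replicate number. The 3 libraries of one region lie to one side of the 3 of the other in all 24 genes, because only such genes were picked.

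Transcription factors of the hypothalamus and the neighbouring ventral forebrain were the other large group. Of 33 tested, 21 were higher and 3 lower (1 without replicate 1), with a median of 4.13, beside 5.91% and 7.39% of all genes. Fezf1, a zinc finger factor of the forebrain, stood at 21.1, 24.4 and 12.2 CPM and had 2846 counts in the hypothalamus inputs against 0 in the midbrain inputs, at least 290-fold higher against the floor. Six6, a homeobox factor of the eye field and hypothalamus, stood at 10.4, 18.9 and 3.59 CPM with 1658 counts against 0, at least 165-fold higher (104-fold without replicate 2). Neither gene had a count in any midbrain input library. Nr5a1 (SF-1), which marks the ventromedial nucleus, had 726 counts against 1 (ratio 677, interval 121 to 26800; 345 without replicate 2), and Bsx, a homeobox factor of the arcuate nucleus, 665 against 3 (ratio 207, interval 70.4 to 1000; 119 without replicate 2). Foxb2 had 213 counts against 0, at least 21.4-fold higher.

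Sim1, needed for the neurons of the paraventricular nucleus, stood at 21.3, 18.3 and 10.3 CPM against 1.48, 0.303 and 0.518 CPM (log2 fold change 4.57, SE 0.371, adjusted p = 7.23e-05). Otp, its partner in these neurons, was higher by 4.86 (adjusted p = 0.000787). Isl1, a factor of arcuate and striatal neurons, stood at 35.1, 45.1 and 30.2 CPM against 1.22, 2.099 and 3.26 CPM (log2 fold change 4.13, adjusted p = 6.74e-05). Dlx2, a factor of forebrain GABAergic neurons, had the tightest hypothalamus values of the 12 most changed genes relative to its mean, 7.21, 8.12 and 7.898 CPM against 0.1602, 0.0433 and 0.592 CPM (log2 fold change 5.14, adjusted p = 0.000433). Lhx8, of basal forebrain and hypothalamic neurons, stood at 13.03, 7.92 and 15.98 CPM against 0.0401, 0.0216 and 1.41 CPM and passed at 0.0252, but not without replicate 1 (0.0654) or 2 (0.455). Nkx2-1, the factor that sets up the ventral hypothalamus, stood at 44.5, 45.5 and 31.8 CPM against 0.0801, 0.1298 and 1.75 CPM. Its groups were far apart, yet it did not pass (adjusted p = 0.115). It did not pass without replicate 1 (0.433) or 2 (0.426) either. It passed without replicate 3 (1.13e-05), whose midbrain library was the highest, by DESeq2 (5.07e-08) and by limma-voom (0.000699). Lhx9 was lower, at 4.99, 5.53 and 15.4 CPM against 43.9, 60.1 and 39.9 CPM (adjusted p = 0.0375; 0.383 without replicate 1 and 0.455 without replicate 2).

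The 2 remaining genes of the 12 most changed were Crabp1, a retinoic acid binding protein, at 6.35, 6.87 and 8.34 CPM against 0.1001, 0.0433 and 0.321 CPM (log2 fold change 5.69, adjusted p = 0.000103), and Sytl4, a regulator of dense-core vesicle release, at 22.3, 28.4 and 16.1 CPM against 0.661, 0.433 and 1.53 CPM (log2 fold change 4.73, adjusted p = 0.000282). Markers of the telencephalon were present beside these forebrain factors. Of 17 tested, 6 were higher and 2 lower (median 0.79), beside 5.91% and 7.39% of all genes. Their summed level was 545 to 702 CPM in hypothalamus and 369 to 586 CPM in midbrain inputs. Tbr1, of cortical neurons, stood at 8.35, 9.54 and 11.6 CPM against 0.2403, 1.95 and 3.92 CPM and did not pass without replicate 2 (adjusted p = 0.549). Slc17a7, on the same list, was lower (-3.79, adjusted p = 3.31e-05), and Lhx8 is counted both here and among the hypothalamic factors. The part of telencephalic RNA in the counts of forebrain factors was not tested.

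On the midbrain side, factors of midbrain and isthmus were among the most changed genes. Of 37 tested, 17 were lower in the hypothalamus and 3 higher, with a median of -1.85, against 7.39% of all genes lower and 5.91% higher. Tfap2d stood at 19.2, 29.02 and 9.38 CPM in the midbrain inputs and had 2682 counts there against 0 in the hypothalamus inputs, at least 312-fold lower. Tfap2b, its neighbour on chromosome 1 and a factor of collicular neurons, stood at 1.54, 2.15 and 1.55 CPM in hypothalamus and 109.6, 140.2 and 67.2 CPM in midbrain (log2 fold change -5.88, SE 0.166, adjusted p = 2.61e-07). Every midbrain library lay far above every hypothalamus library. POU factors of tectal projection neurons followed, Pou4f1 at 0.351, 0.261 and 0.882 against 13.8, 22.2 and 14.2 CPM (log2 fold change -5.12, adjusted p = 7.97e-05) and Pou4f2 at 0.0439, 0.411 and 0 against 16.04, 15.2 and 4.74 CPM (-6.49, adjusted p = 0.000257).

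Gata3 and Tal1, which act together in midbrain GABAergic neurons and whose promoters are printed above, had close values. Gata3 stood at 1.14, 0.971 and 0.4201 CPM against 25.2, 35.7 and 21.4 CPM (log2 fold change -5.06, SE 0.253, adjusted p = 1.18e-05). Tal1 stood at 0.637, 1.12 and 0.6301 CPM against 26.98, 22.1 and 21.9 CPM (log2 fold change -4.90, SE 0.2598, adjusted p = 1.18e-05). The annotation places 3 other genes over Gata3, so its counts are uncertain where reads were shared. Pax7, a factor of the dorsal midbrain, stood at 0.857, 2.75 and 0.252 CPM against 14.8, 13.03 and 9.104 CPM (log2 fold change -3.66, adjusted p = 0.00165), and Dmbx1 at 0.0439, 0.317 and 0 CPM against 5.39, 5.76 and 4.59 CPM (-5.76, adjusted p = 0.000919). Pax3 had 385 counts in the midbrain against 1 (ratio 413, interval 73.7 to 16400), and Pax5, of the midbrain-hindbrain boundary, 479 against 3 (ratio 171, interval 58.3 to 834; 65.9 without replicate 2). En1, which is needed at the same boundary and in dopamine neurons, was lower, at a log2 fold change of -2.31 (adjusted p = 0.0015). The members that were higher in the hypothalamus included Sall3 (1.77, adjusted p = 0.00201) and Lmx1a (1.29, adjusted p = 0.0307; 0.0651 without replicate 1 and 0.0792 without replicate 2).

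Of 11 genes of glutamate transport and metabolism, 1 was higher and 6 lower (median -0.33), with 3 lower without replicate 3. Of 10 genes of GABA and glycine, 1 was higher and 3 lower (median -0.10), with 1 lower without replicate 3. Over all genes, 5.91% were higher and 7.39% lower. Slc17a6 (VGLUT2), the gene whose control regions drive the transgene, stood at 541, 227 and 324 CPM against 1289, 523 and 614 CPM. The groups overlapped, since both libraries numbered 1 were the highest of their region, but the hypothalamus was lower in 3 of 3 pairs (log2 fold change -1.13, SE 0.0837, adjusted p = 4.47e-05). Without the replicate block Slc17a6 did not pass (0.205). Rpl10a, whose native counts cannot be told from the transgene's, did not pass (0.33, adjusted p = 0.344). Slc17a7 (VGLUT1), a transporter of cortical and thalamic neurons, stood at 0.747, 1.102 and 5.92 CPM against 17.9, 17.1 and 51.7 CPM (log2 fold change -3.79, adjusted p = 3.31e-05). In both regions its highest library was number 3, and Slc17a7 did not pass without the replicate block (0.0778). Gad2, for the GABA-synthesising enzyme GAD65, stood at 1731, 1476 and 1640 CPM against 1334, 1220 and 984 CPM and was higher (log2 fold change 0.46, adjusted p = 0.00887; 0.117 without replicate 3), whereas Gad1 (-0.09, adjusted p = 0.755) and the vesicular transporter Slc32a1 (-0.12, adjusted p = 0.751) did not pass. Slc6a5, the glycine transporter of glycinergic neurons, had 189 counts in the midbrain against 3 (ratio 67.6, interval 22.8 to 331; 113 without replicate 1).

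Of 9 genes of serotonin, noradrenaline and histamine signalling tested, 3 serotonin genes were lower and Maob, for a monoamine oxidase, was higher (0.76, adjusted p = 0.00768; 0.0917 without replicate 3), with a median of 0.27. Without replicate 3, 1 was lower. Over all genes, 5.91% were higher and 7.39% lower with every replicate kept. Tph2, the enzyme of serotonin synthesis in the brain, stood at 0.132, 0.0374 and 0.168 CPM against 1.42, 7.36 and 7.92 CPM (log2 fold change -5.42, SE 0.676, adjusted p = 0.00078). The midbrain library numbered 1 was the lowest of its group and still above every hypothalamus library. The serotonin transporter Slc6a4 was lower, at a log2 fold change of -3.45 (adjusted p = 0.0182), as was the factor Fev at -2.28 (adjusted p = 0.0474), and both calls were lost without replicate 3 (0.0628 and 0.302). Of 15 dopamine neuron genes tested, 4 were lower and 0 higher (median -0.40), and 2 were lower without replicate 3. Aldh1a1, an aldehyde dehydrogenase of ventral tier dopamine neurons, stood at 102, 55.3 and 58.9 CPM against 283, 179 and 176 CPM (log2 fold change -1.58, SE 0.0882, adjusted p = 1.18e-05). The dopamine transporter Slc6a3 stood at 40.5, 5.23 and 10.1 CPM against 78.5, 36.7 and 35.2 CPM, overlapping through hypothalamus input 1 (log2 fold change -1.82, adjusted p = 0.0188). It did not pass without replicate 3 (0.0859) or without the replicate block (0.377). Th, the first enzyme of dopamine synthesis, which the hypothalamus also makes, stood at 52.6, 36.9 and 35.4 CPM against 42.6, 49.9 and 42.8 CPM and did not pass (adjusted p = 0.622). Hdc, for histamine synthesis in the tuberomammillary nucleus, stood at 19.9, 19.2 and 12.5 CPM against 0.581, 0.476 and 3.405 CPM, without overlap, and did not pass (adjusted p = 0.0703). It did not pass without replicate 1 (0.397) or 2 (0.532) either, but passed without replicate 3 (0.000122), by DESeq2 (0.000173) and by limma-voom (0.00331).

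Receptors for peptides and steroid hormones were read beside 5.91% of all genes higher and 7.39% lower. Of 45 peptide and hormone receptor genes tested, 10 were higher and 3 lower (median 0.27), and without replicate 1 these counts were 2 and 1. Brs3, an orphan bombesin receptor, stood at 6.11, 5.02 and 2.42 CPM against 0.0401, 0 and 0.0493 CPM (log2 fold change 7.12, adjusted p = 0.000208). Calcr, for calcitonin and amylin, stood at 35.4, 6.12 and 6.26 CPM against 1.18, 0.498 and 1.31 CPM (3.62, adjusted p = 0.0013; 0.426 without replicate 2). Ramp3, an accessory protein of this receptor, was lower (-1.70, adjusted p = 0.00139), with the groups overlapping, and did not pass without the replicate block (0.139). Of 17 genes of steroid and thyroid signalling, 5 were higher and 2 lower (median 0.51; 1 lower without replicate 3). Esr1, the oestrogen receptor alpha, stood at 24.6, 23.1 and 11.1 CPM against 4.93, 4.11 and 3.38 CPM (log2 fold change 2.18, SE 0.207, adjusted p = 0.000168). Its groups did not overlap. Dio2, which activates thyroid hormone in glia, was lower (-1.57, adjusted p = 0.000106).

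Subunits of the GABA-A receptor changed in both directions. Of 19 genes of GABA and glycine receptors, 5 were higher and 6 lower (median 0.15), beside 5.91% and 7.39% of all genes. Without replicate 2, 8 were higher. Gabre and Gabrq, which form an uncommon receptor type with restricted expression, were higher by 4.44 (adjusted p = 0.000141) and 2.70 (adjusted p = 1.18e-05). Gabrq stood at 141, 49.8 and 55.5 CPM against 18.9, 10.3 and 7.25 CPM, with no overlap. Gabrd, the subunit of tonic inhibition, was lower (-2.42, adjusted p = 0.00152). Chrna4, a nicotinic subunit, stood at 75.1, 29.4 and 40.7 CPM against 202, 107 and 124 CPM (-1.63, adjusted p = 2.61e-05). Of 36 receptors of monoamines and acetylcholine, Chrna4 included, 5 were higher and 7 lower (median -0.13; 1 higher without replicate 1 and 4 lower without replicate 3), among them the muscarinic receptor Chrm5 (1.51, adjusted p = 0.0111; 0.106 without replicate 1) and the adrenergic receptor Adra1d (-3.20, adjusted p = 0.0403; 0.155 without replicate 1 and 0.106 without replicate 3). Of 18 glutamate receptor genes, 1 was higher and 5 lower (median -0.17; 4 higher without replicate 2 and 3 lower without replicate 3), with the NMDA receptor subunit Grin2a at -1.25 (adjusted p = 0.0316; 0.0562 without replicate 1).

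Of 6 cholinergic genes 1 was higher (median 0.71), with 0 higher without replicate 1 or replicate 3, 4 without replicate 2 and 3 by DESeq2. Of 10 cerebellar and hindbrain genes 2 were higher and 2 lower (median -0.16; 1 higher without replicate 1 or replicate 2), beside 13.3% of all genes called. Vessel markers gave 2 lower of 20 (median -0.45; 0 without replicate 3), and nuclear genes of oxidative phosphorylation 2 lower of 24 (median -0.15; 1 without replicate 1). Of 4 blood cell genes tested 0 passed by edgeR, DESeq2 or limma-voom, and 0 had an unadjusted p under 0.05 (median 0.32).

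Genes of fast-firing neurons and of large axons were lower in the hypothalamus almost throughout. Of 21 tested, 19 were lower and 1 higher (0 higher without replicate 1 or without replicate 3), with a median of -1.35. Over all genes, 7.39% were lower and 5.91% higher. All 19 lower genes had groups that did not overlap, beside 1752 of the 2334 genes called over all genes. The summed level of the 21 was 2021 to 2605 CPM in the hypothalamus and 5412 to 6135 CPM in the midbrain inputs. Nefh, for the heavy neurofilament, stood at 61.8, 60.6 and 77.7 CPM against 163, 208 and 180.0 CPM (log2 fold change -1.46, SE 0.114, adjusted p = 5.7e-05). Spp1, for osteopontin, stood at 3.87, 3.64 and 1.97 CPM against 42.98, 22.6 and 17.2 CPM (-3.08, adjusted p = 2.72e-05). Scn4b, the sodium channel subunit of resurgent current, was lower, at a log2 fold change of -2.85 (adjusted p = 0.00693; 0.214 without replicate 1) and so was Syt2, a fast calcium sensor of release, at -2.49 (adjusted p = 0.000132). Pvalb, the calcium buffer of many fast-firing cells, stood at 9.69, 11.9 and 27.1 CPM against 63.9, 92.96 and 60.05 CPM (-2.28, adjusted p = 0.0449), a call lost without replicate 1 (0.401) or 2 (0.468). Kcng4, a modifying potassium channel subunit, and Bnc2, a zinc finger factor, are not on this list and were named among the 12 most changed lower genes. Kcng4 stood at 2.57, 1.699 and 1.81 CPM against 25.5, 18.7 and 19.5 CPM (-3.40, adjusted p = 1.18e-05), and Bnc2 at 14.6, 10.2 and 12.2 CPM against 148, 120.2 and 62.00 CPM (-3.09, adjusted p = 6.74e-05). Components of perineuronal nets, the matrix around many fast-firing neurons, had 5 of 14 lower and 0 higher (median -0.39), with Acan at -1.97 (adjusted p = 0.0197; 0.0684 without replicate 3) and Hapln1 at -1.70 (adjusted p = 0.00119). Without replicate 3, 3 of the 14 were lower.

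Markers of oligodendrocytes, the myelin-forming glia, were lower with 1 exception, Ndrg1 (-0.14, adjusted p = 0.343). Of 30 tested, 29 were lower and 0 higher, with a median of -1.01, beside 7.39% and 5.91% of all genes. The range over libraries of their summed level was 4435 to 5600 CPM in hypothalamus and 9306 to 10210 CPM in midbrain. Mbp, a main myelin protein, stood at 669.9, 765 and 1070 CPM against 1303, 1720 and 1791 CPM (log2 fold change -0.96, SE 0.0864, adjusted p = 0.000128). Mog, a protein of the outer myelin surface, stood at 41.4, 36.2 and 35.1 CPM against 95.1, 85.1 and 83.5 CPM (-1.23, SE 0.0949, adjusted p = 5.52e-05). Both were lower in every pair without overlap. The largest difference was that of Klk6, a protease of mature oligodendrocytes (-2.30, adjusted p = 0.00043). Without the replicate block 12 of the 30 were lower. Of 11 markers of oligodendrocyte precursors, 3 were lower and 0 higher (median -0.13), and 0 were lower without replicate 3.

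Of 20 astrocyte markers, 5 were lower and 1 higher (median -0.11), beside 7.39% and 5.91% of all genes, and 3 were lower without replicate 1 or without replicate 3. Aqp4, the water channel of astrocyte end-feet, stood at 113, 60.1 and 58.9 CPM against 209, 142 and 118 CPM (-1.04, SE 0.09696, adjusted p = 0.00015), while Gfap stood at 38.1, 46.1 and 28.2 CPM against 36.8, 55.96 and 43.2 CPM and did not pass (-0.28, adjusted p = 0.228). Slc1a3, the glutamate transporter GLAST, is not on the astrocyte list and was the 1 higher gene of the glutamate list above. It stood at 175, 50.01 and 48.4 CPM against 73.1, 23.6 and 31.2 CPM (1.00, adjusted p = 0.00085), with the groups overlapping and 3 of 3 pairs higher. Without the replicate block Slc1a3 did not pass (0.432). Of 20 microglial markers, 0 passed by edgeR, and DESeq2 called 1 and limma-voom 0 (median -0.34). By edgeR, 7 of the 20 had an unadjusted p under 0.05, beside 4681 of all 17561 genes tested. Cx3cr1 stood at 9.799, 5.94 and 5.06 CPM against 11.3, 10.99 and 9.77 CPM (adjusted p = 0.0747). Pan-neuronal markers gave 3 higher and 2 lower of 16 (median 0.04; 4 lower without replicate 1).

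Markers of cells that line the ventricles and the brain surface changed in part. Over all genes, 5.91% were higher and 7.39% lower. Of 13 ependymal markers, 4 were higher and 0 lower (median 1.48), with a summed level of 80.1 to 109 CPM in hypothalamus and 33.1 to 57.8 CPM in midbrain. The list includes Hdc, the histamine gene given above, which had its largest log2 fold change (3.97) and did not pass. Hdc gave 12.5 to 19.9 CPM of the sum in hypothalamus and 0.476 to 3.405 CPM in midbrain inputs. Ak7, of motile cilia, stood at 10.7, 11.00 and 7.92 CPM against 2.64, 1.97 and 5.403 CPM (1.68, adjusted p = 0.0134; 0.0562 without replicate 1) and Rsph1, of the radial spoke, at 14.4, 18.8 and 17.3 CPM against 6.35, 4.72 and 11.1 CPM (1.26, adjusted p = 0.00904). Foxj1, the master regulator of motile cilia, stood at 10.8, 18.5 and 13.4 CPM against 10.8, 22.2 and 13.3 CPM and did not pass (adjusted p = 0.789). Of 19 tanycyte genes, 4 were higher and 3 lower (median -0.01). The lower ones included Dio2, given above (-1.57, adjusted p = 0.000106). Fndc3c1 had 632 counts in hypothalamus against 1 (ratio 589, interval 105 to 23300), of which 505 were from hypothalamus input 2, and 127 against 0 without replicate 2 (at least 20.6-fold higher), and Gpr50 was higher by 3.51 (adjusted p = 0.00291; 0.23 without replicate 2). Rax, which defines tanycytes, did not pass (0.308, 1.61 and 0.4201 CPM against 0, 0.0216 and 0.123 CPM, adjusted p = 0.0548). It did not pass without replicate 1 (0.17) or 2 (0.178) either, but passed without replicate 3 (0.0387), by DESeq2 (0.00656) and by limma-voom (0.0403). Of 15 fibroblast markers of the meninges, 5 were lower and 0 higher (median -1.21; 3 lower without replicate 3), among them Ptgds at 182, 289 and 167 CPM against 838, 770.0 and 389.7 CPM (-1.61, adjusted p = 0.000925; 0.323 without replicate 2).

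**Figure D3:**
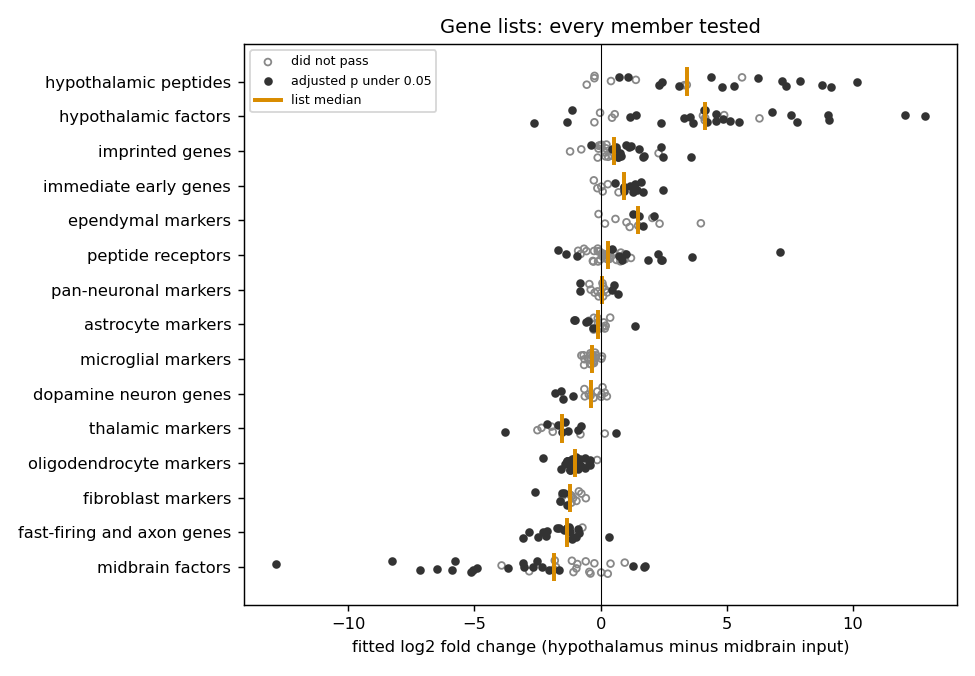
Each point is a tested member of a list, with its fitted log2 fold change (hypothalamus minus midbrain input) on the x axis; filled points passed at adjusted p under 0.05, open points did not, and bars mark list medians. The medians run from 4.13 for hypothalamic factors to -1.85 for midbrain factors, with pan-neuronal markers at 0.04.

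Imprinted genes, which are expressed from 1 parental allele, were read beside 5.91% of all genes higher and 7.39% lower. Of 32 tested, 16 were higher and 1 lower (Peg13, -0.37, adjusted p = 0.019; 0.0541 without replicate 2), with a median of 0.53. Peg10, a retrotransposon-derived gene, stood at 667, 841 and 617 CPM against 112, 141 and 124 CPM (log2 fold change 2.49, SE 0.0852, adjusted p = 5.66e-07). Asb4, of arcuate neurons, stood at 78.5, 78.9 and 45.5 CPM against 6.09, 4.16 and 6.46 CPM (3.58, SE 0.247, adjusted p = 5.52e-05). Every hypothalamus library was above every midbrain library for both. Magel2, 1 of the genes deleted in Prader-Willi syndrome, stood at 35.02, 39.1 and 28.6 CPM against 6.37, 6.41 and 6.88 CPM (2.38, adjusted p = 2.93e-05), and Nnat at 628, 699.8 and 512 CPM against 164, 239 and 163 CPM (1.71, adjusted p = 1.18e-05). Leaving out any 1 replicate left between 15 and 17 imprinted genes higher.

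Immediate early genes, which neurons transcribe within minutes of activity, were higher in 11 of 17 and lower in 0 (median 0.93). Over all genes, 5.91% were higher and 7.39% lower. Fosb stood at 11.2, 15.4 and 20.00 CPM against 4.15, 4.87 and 6.29 CPM (log2 fold change 1.59, adjusted p = 0.00049) and Npas4 at 11.7, 13.6 and 19.5 CPM against 4.57, 5.93 and 5.87 CPM (1.43, adjusted p = 0.00124). Fos stood at 25.9, 18.7 and 26.1 CPM against 18.2, 10.8 and 9.03 CPM (0.94, adjusted p = 0.0129; 0.105 without replicate 3). The groups did not overlap for any of these 3. Without replicate 3, 5 of the 17 were higher.

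Markers of neighbouring tissue moved with region and library. Of 15 thalamic markers, 8 were lower and 1 higher (median -1.53), beside 7.39% and 5.91% of all genes. Their summed level was 510 to 1467 CPM in the hypothalamus, highest in input 3, and 1837 to 3047 CPM in the midbrain, also highest in input 3. Lef1 stood at 5.14, 9.299 and 23.4 CPM against 30.7, 51.2 and 61.95 CPM (-2.13, adjusted p = 0.000327). Tcf7l2 did not pass (-1.95, adjusted p = 0.0502), nor without replicate 2 (0.461), though it did without replicate 1 (0.00807) or 3 (0.000143). Pituitary markers summed to 1684 CPM in hypothalamus input 2, to 129 and 54.7 CPM in the other hypothalamus inputs and to 21.9 to 32.4 CPM in the midbrain inputs. Prl and Gh did not pass (adjusted p = 0.494 and 0.506), and Tbx19, of the cells that make Pomc, had 362 counts against 0, at least 34.9-fold higher. Of these counts 292 were from hypothalamus input 2, and without replicate 2 the bound was 11.2-fold. Choroid plexus markers summed to 1438 CPM in midbrain input 3 and to 135 to 410 CPM in the other 5 inputs, and Ttr did not pass (adjusted p = 0.518). Otx2, on the choroid plexus and midbrain factor lists, was lower at 7.49, 4.26 and 8.297 CPM against 38.97, 49.3 and 36.5 CPM (-2.67, adjusted p = 0.000279). Without replicate 3 its log2 fold change was -2.98 (adjusted p = 0.00116). The part of these tissues in the regional differences was not tested.

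**Figure D4:**
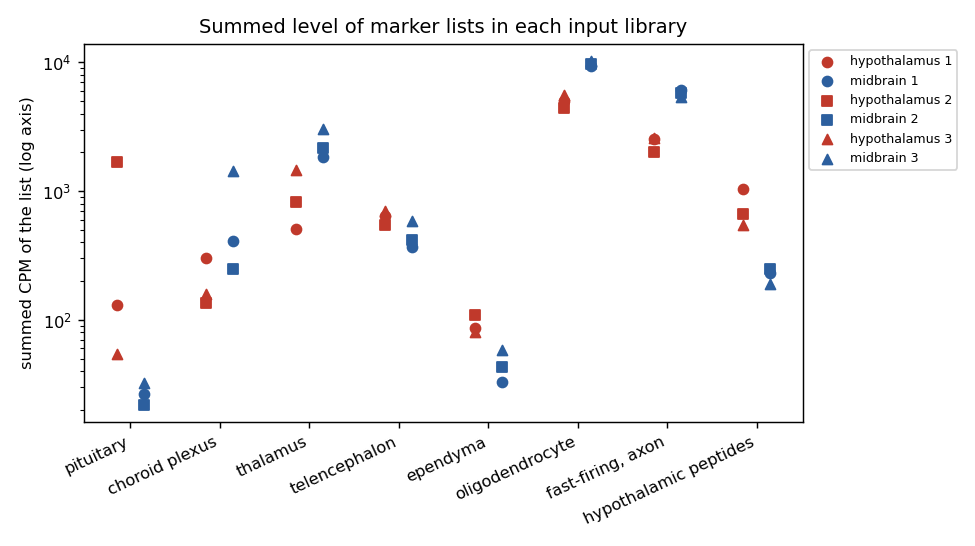
Each point is 1 input library and the y axis (log scale) is the summed CPM of the tested members of a marker list; red marks hypothalamus, blue midbrain, and the shape gives the replicate number. Hypothalamus input 2 stands apart for pituitary markers (1684 CPM) and midbrain input 3 for choroid plexus markers (1438 CPM), while oligodendrocyte and fast-firing lists separate the regions in every library.

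The same regional difference was read in the 6 IP libraries. These are separate libraries, but each IP has the replicate number and the lane code of an input from its region, and no label used here says whether both came from 1 tissue sample. Of 15531 genes tested between the IPs, 11.2% were called. Of the 1037 genes higher in the hypothalamus input, 341 (32.9%) were also higher between the IPs, which is 52.7% of the 647 higher there, and 9 were lower. Of the 1297 lower genes, 563 (43.4%) were also lower, 51.9% of the 1085 lower between the IPs, and 14 were higher. Without the replicate block in either fit, 78 genes were called in the same direction in both, against 904 with it. The region effect differed between inputs and IPs for 163 of the 17561 genes (test of the interaction, adjusted p under 0.05), 98 of them called between the inputs. Tfap2b and Peg10 were alike in direction in both fractions, at -5.88 and -5.06 for Tfap2b and 2.49 and 2.14 for Peg10 (interaction adjusted p = 0.535 and 0.317). Sst, for somatostatin, was higher in the hypothalamus input at 136, 154 and 166 CPM against 59.3, 133 and 100.04 CPM (0.71, adjusted p = 0.0198; 0.124 without replicate 3) and lower in the IP (-2.28, adjusted p = 5.86e-05), with an interaction adjusted p of 0.000731.

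**Figure D5:**
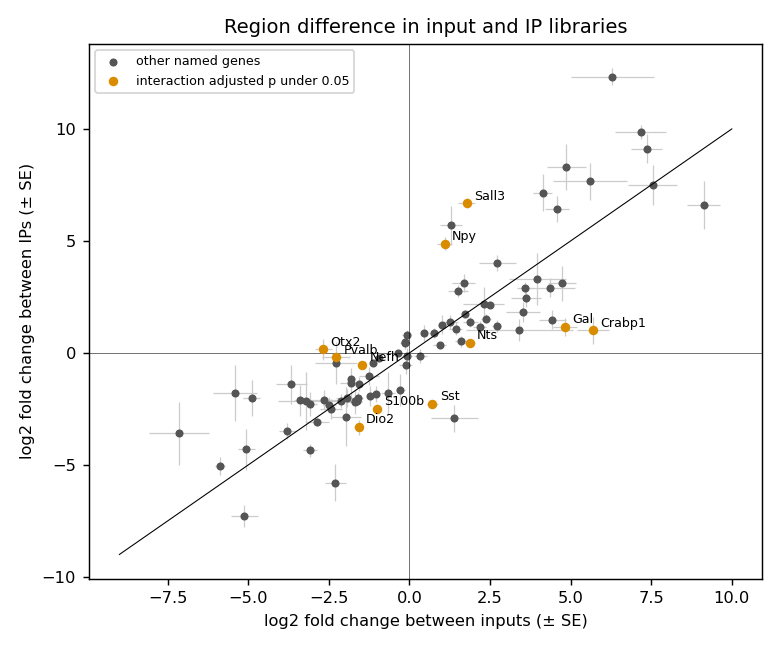
Each point is 1 of 89 named genes with counts in every region and fraction, with the log2 fold change (hypothalamus minus midbrain) between inputs on the x axis and between IPs on the y axis; bars are standard errors and the diagonal marks equal values. Orange genes had an interaction adjusted p under 0.05, and Sst is higher between inputs (0.71) but lower between IPs (-2.28).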

How the data were processed

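Each library had its own deposited table of whole-number read counts, not normalised, over 32531 gene symbols. STAR 2.0.0e was the aligner, mm10 the build and HTSeq the counter, per the submitters' processing notes. The annotation, strand setting and counting mode are not given in the sources used here, so genes that overlap another gene are uncertain. The 5 summary rows and the row named unknown (under 0.00001% of reads) were left out. Ambiguous reads made up 4.03% in hypothalamus input 2 and 7.92% to 16.2% in the other inputs. Intervals and floors cover counting error only, and a floor of 3 counts came to 0.056 to 0.074 CPM.

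Counts of the 6 input libraries were kept with filterByExpr, scaled by the trimmed mean of M values (TMM) and fitted with edgeR 4.0.16 in R 4.3.3 (robust quasi-likelihood, region plus replicate number). DESeq2 1.42.0 and limma 3.58.1 served as alternatives. The fit was tested on simulated counts with a replicate effect and the same dispersion in every gene. They held no outlying library, so that test does not cover the outlying libraries of these data. The numbers were used to pair the samples. Deviations from the group means correlated over genes at 0.418, 0.147 and 0.18 between same-numbered libraries of the 2 regions. Between libraries of unlike number they correlated at -0.246 to 0.053. What libraries of 1 number share is not given in the labels used here and was not tested. The p-values measure only the spread between these samples. The 12 genes of each direction with the largest change were named among those that passed, reached 5 CPM on average in the higher region and did not overlap. From each of 34 lists, up to 4 passing members per direction and defining members could be named too. The members and lists were chosen with earlier results of these data known. Coordinates came from GENCODE M21 (GRCm38), which held 87.1% of the tested symbols. A few genes are not reported here by name.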

Additional observations from a re-analysis of the deposited data

Results flagged for a closer look

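For 11 named genes the region effect differed between the input and the IP libraries by the test of the interaction. Each value below is the log2 fold change (hypothalamus minus midbrain) between inputs minus that between IPs. Neuropeptide genes were further toward the hypothalamus in the inputs: Gal by 3.65 (interaction adjusted p = 0.0244), Sst by 2.98 (0.000731) and Nts by 1.40 (0.0152). Npy went the other way at -3.80 (0.000921), with 1.09 between inputs and 4.88 between IPs. Crabp1 differed by 4.72 (0.0336). Among midbrain factors, Sall3 differed by -4.93 (0.000319) and Otx2 by -2.88 (0.0264), Otx2 being lower between inputs (-2.67) and at 0.17 between IPs. The glial genes Dio2 and S100b differed by 1.69 (0.0336) and 1.47 (0.00639). Pvalb differed by -2.10 (0.0408) and Nefh by -0.95 (0.0389).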

How the results depend on the processing

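Without the replicate block 220 genes were higher and 204 lower, and with 12 libraries and no replicate block 182 and 109. Library size alone gave 1845 higher and 956 lower. Leaving out each replicate gave 479 to 1160 higher and 712 to 1391 lower genes. Median-ratio size factors (990 and 1341), no low-count filter (1148 and 1444), DESeq2 (1275 and 1708) and limma-voom (1132 and 1380) stayed within 1.5 times. Genes called alike in inputs and IPs fell from 904 to 78 without the replicate block. Of the named genes, 36 lost their call without the block. Among these, by adjusted p in that fit, were Chrm5 (0.416), Sst (0.2775), Aqp4 (0.143), Nts (0.125) and Chrna4 (0.075). Of 1130 values of the 113 named genes under these alternatives, 968 kept direction and side of the threshold, 128 lost the call, 28 gained it and 6 changed sign: leaving out each replicate gave Th -0.36 to 0.017, Gad1 -0.28 to 0.16, Slc32a1 -0.31 to 0.21 and Foxj1 -0.16 to 0.0083, and library size alone gave Gad1 0.032 and Foxj1 0.038, of which none passed in the fit reported. The cause was not tested, apart from the fewer samples when a replicate is left out. The interaction was fitted in 1 way. Depth limits genes with a few counts in a region to the bounds given.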

Other observations

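Genes of motile cilia outside the ependymal list were looked up after their values were seen, by symbol (Dnah, Dnai, Dnaic, Dnal, Rsph, Drc, Cfap or Tekt followed by a number). Of 45 tested, 16 were higher in the hypothalamus input and 0 lower, with a median log2 fold change of 1.11, beside 5.91% and 0.01 over all genes. Leaving out any 1 replicate gave 11 or 12 higher, and without the replicate block 6 were higher. Their summed level was 867 to 997 CPM in the hypothalamus and 665 to 706 CPM in the midbrain inputs. Most of these families are known as dynein arms, radial spokes and other parts of the axoneme. They were not tested as a group.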
